A study of Homo sapiens with 12 samples.

Results

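Cadherins and the transcription factors of the epithelial-mesenchymal transition were followed in AC16 cells exposed to doxorubicin. The set held 10 genes, chosen by symbol from the 60607 gene IDs of the count table. They were the cadherins CDH1, CDH2, CDH11 and CDH13, and the factors SNAI1, SNAI2, TWIST1, TWIST2, ZEB1 and ZEB2. All 10 passed the filter on low counts, which left 17320 genes to test. AC16 is an established human line made by fusing adult ventricular heart cells with transformed fibroblasts, and doxorubicin is an anthracycline that poisons topoisomerase II and is toxic to the heart. The groups were wild-type AC16 cells given DMEM (control) and wild-type AC16 cells given 0.1 µM doxorubicin for 2, 4 or 6 days, with 3 libraries in each. The labels disagree on the longest exposure: the library titles give 48, 96 and 112 hours, while the treatment text gives 2, 4 and 6 days, and every title, controls included, carries a day 6 mark. The groups are called day 2, day 4 and day 6 below, and whether the drug stayed on until harvest is not given in the sources used here. Nothing in the labels says that the 3 repeats were separate cultures, so the p-values cover only the spread among these 12 libraries, and that spread may be technical.

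Cadherins are membrane proteins that join neighbouring cells, and catenins tie most of them to the actin skeleton. In an epithelial-mesenchymal transition, cells lose E-cadherin (CDH1) and epithelial junctions and take on N-cadherin (CDH2), vimentin and matrix genes. Snail, Twist and ZEB proteins drive this program, and Snail and ZEB proteins repress CDH1 through E-box sequences. In the heart, N-cadherin holds cardiomyocytes together at the intercalated disc, and cardiac fibroblasts express CDH11 and TWIST1.

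Library totals ran from 14835743 to 21226441 counts. The cell cycle inhibitor CDKN1A, a p53 target, averaged 198 CPM (counts scaled to the TMM-adjusted library size) in control cells, 2300 at day 2, 1454 at day 4 and 1642 at day 6. The mitochondrial share of counts was 5.51% to 8.34%, and control replicate 2 (8.26%) and day 2 replicate 3 (5.51%) stood apart from the other libraries of their groups. The label calls the cells cardiomyocytes, but only 4 of 14 cardiomyocyte markers passed the count filter. MYL2 had 0 counts in every library, MYH6 and MYH7 at most 3, TNNT2 at most 6, TNNI3 and ACTC1 at most 5 and NKX2-5 at most 1. The tested markers were the sarcomere genes TTN (11.3 to 16.7 CPM as group means) and ACTN2 (0.0658 to 0.983). The heart factor GATA4 (5.70 to 7.06) and PLN (0.383 to 0.454) were the others. ACTN2 was higher than control at all 3 exposures, from 3 counts in total over the control libraries. TTN was higher at day 6 (log2 fold change 0.56, adjusted p = 0.0225), while GATA4 and PLN passed at no exposure. All 14 summed to 15.2 to 20.04 CPM in control cells, 19.5 to 22.5 at day 2, 18.8 to 24.4 at day 4 and 24.7 to 26.9 at day 6. All 13 fibroblast markers were tested, with summed levels of 7956 to 8661 CPM in control cells, 12254 to 12615 at day 2, 10388 to 10929 at day 4 and 8900 to 9325 at day 6. Endothelial markers summed to 23.4 to 25.4 CPM in control cells and 23.0 to 27.9 at day 2. Their sum was 27.2 to 29.2 CPM at day 4 and 23.8 to 25.2 at day 6. Leukocyte markers summed to 4.95 to 7.42 CPM in control cells and 6.90 to 7.80 at day 2. Their sum was 10.5 to 13.3 CPM at day 4 and 12.04 to 13.5 at day 6. Of the 3 leukocyte markers tested, CD68 was higher and CD14 lower at day 4 and day 6, and PTPRC did not pass.

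At day 2, 7 of the 10 genes passed the test against control (adjusted p under 0.05 over all tested genes), 3 higher and 4 lower, beside 47.2% of all tested genes. CDH2, CDH11 and SNAI2 were higher, and CDH13, SNAI1, TWIST1 and ZEB2 were lower. At day 4, 6 of 10 passed, 2 higher and 4 lower, beside 36.5% of all genes. At day 6, 9 of 10 passed, 3 higher (CDH11, CDH13 and ZEB1) and 6 lower (CDH1, CDH2, SNAI1, TWIST1, TWIST2 and ZEB2), beside 43.7% of all genes. Without the 2 libraries that stood apart in mitochondrial share, the counts were 8, 5 and 7 of 10. In that setting 7950, 6527 and 7423 genes in all passed, beside 8180, 6321 and 7571 with every library kept. The median log2 fold change of the 10 genes was -0.18 at day 2, -0.27 at day 4 and -0.50 at day 6, while that of all tested genes lay between -0.01 and 0.00. The libraries of day 2 and control did not overlap for 8 of the 10 genes, beside 52.2% of all genes; at day 4 this held for 7 (44.6%) and at day 6 for 9 (50.9%). Over the 4 groups, 9 of 10 differed, beside 63.4% of all genes, and TWIST2 did not pass (adjusted p = 0.0720). In bulk RNA, fewer cells of a type and less RNA per cell cannot be told apart.

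**Figure D1:**
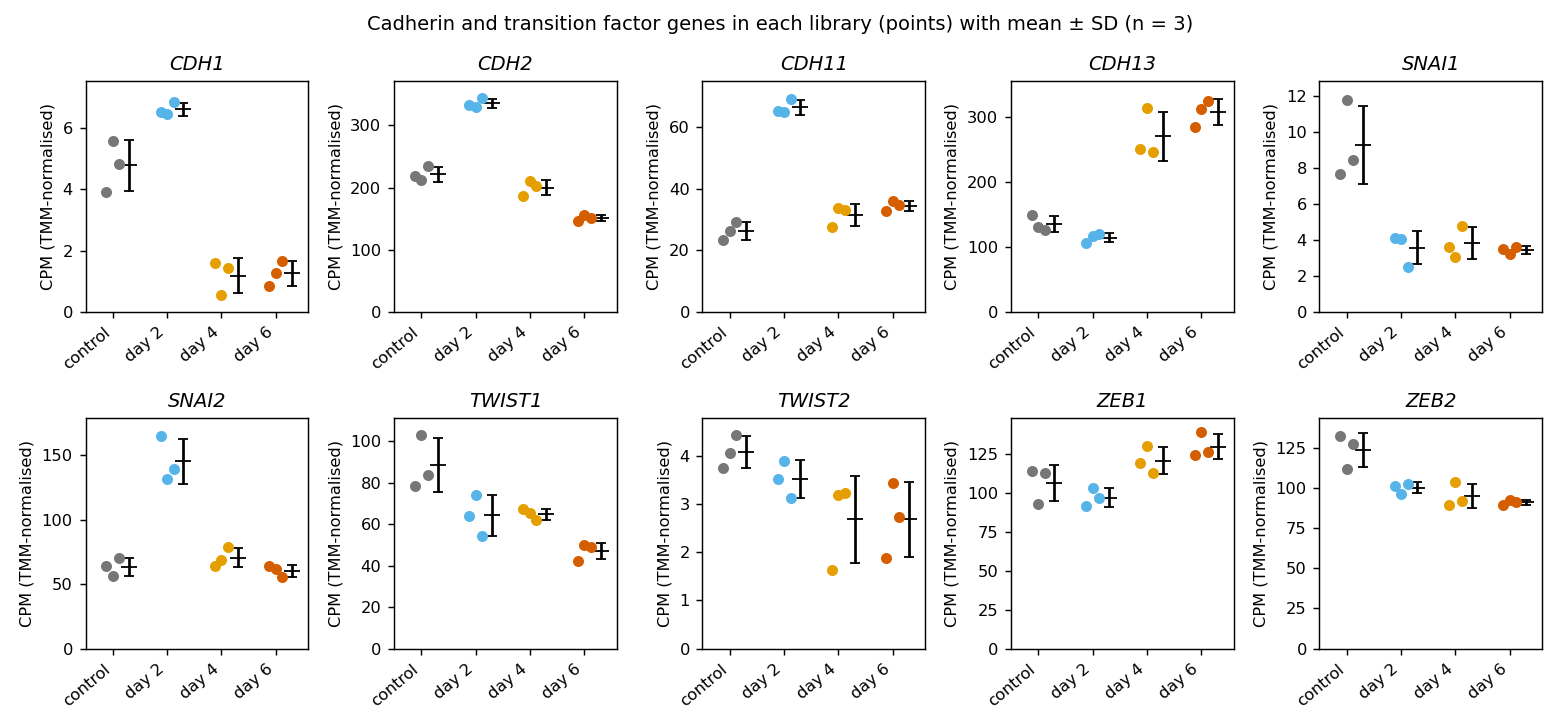
Level of each of the 10 genes in every library (points, TMM-scaled CPM on linear axes from 0) with mean ± SD of the 3 libraries per group beside them. CDH2, CDH11 and SNAI2 stand highest at day 2, CDH13 at day 4 and day 6, and SNAI1 and TWIST1 in control cells.

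CDH2 (ENSG00000170558.10; chromosome 18, 27950966 to 28177446, minus strand, GRCh38) encodes N-cadherin. Its level was 218, 212 and 235 CPM in the control libraries and 333, 330 and 344 CPM at day 2. It was 187, 210 and 202 CPM at day 4 and 146, 156 and 150 CPM at day 6. The day 2 libraries all lay above the control libraries and the day 6 libraries all below them. CDH2 rose 1.51-fold at day 2 (log2 fold change 0.60 ± 0.07 SE, adjusted p = 2.79e-07). At day 6 it was 1.47-fold lower than in control cells (-0.55 ± 0.07, adjusted p = 1.22e-06). The day 4 difference did not pass (-0.15 ± 0.07, adjusted p = 0.116), though the libraries did not overlap. CDH2 fell between day 2 and day 4 (-0.75 ± 0.07, adjusted p = 1.90e-08), and again between day 4 and day 6 (-0.40 ± 0.07, adjusted p = 0.00129).

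CDH11 (ENSG00000140937.14; chromosome 16, 64943753 to 65126112, minus strand) encodes OB-cadherin, a mesenchymal cadherin of osteoblasts and fibroblasts. It had 23.3, 26.3 and 29.3 CPM in control cells and 65.2, 65.1 and 69.2 CPM at day 2. It had 27.6, 33.9 and 33.1 CPM at day 4 and 32.8, 36.2 and 34.6 CPM at day 6. Day 2 stood apart from all other groups, day 6 stayed above control without overlap, and day 4 overlapped with control. The day 2 rise was 2.53-fold (1.34 ± 0.10, adjusted p = 4.98e-11), and day 4 was 2.11-fold below day 2 (-1.08 ± 0.10, adjusted p = 5.06e-09). At day 6, CDH11 was 1.31-fold above control (0.39 ± 0.10, adjusted p = 0.00252). The day 4 difference from control passed narrowly (0.26 ± 0.10, adjusted p = 0.0454) and was lost in 12 of 20 alternatives, whose adjusted p ran from 0.0161 to 0.240. Leaving out control replicate 1 (adjusted p = 0.240) or 2 (0.0561), day 2 replicate 3 (0.0518), day 4 replicate 2 (0.162) or 3 (0.138), or any day 6 replicate (0.0545, 0.0524 and 0.0514) each ended that call.

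CDH13 (ENSG00000140945.17; chromosome 16, 82626803 to 83800640, plus strand) encodes T-cadherin, which is held in the membrane by a GPI anchor, lacks a cytoplasmic tail and binds adiponectin. Control libraries had 149, 131 and 127 CPM and day 2 libraries 106, 118 and 120 CPM. Day 4 libraries had 251, 314 and 246 CPM and day 6 libraries 286, 312 and 325 CPM. Every day 4 and day 6 library lay above every control library, and every day 2 library lay below them. CDH13 was 2.00-fold higher at day 4 (1.00 ± 0.09, adjusted p = 5.86e-09) and 2.27-fold higher at day 6 (1.18 ± 0.09, adjusted p = 1.95e-10) than in control cells. Between day 2 and day 4 it rose 2.36-fold (1.24 ± 0.09, adjusted p = 2.45e-10), and the further difference at day 6 did not pass (0.19 ± 0.09, adjusted p = 0.247; 0.0472 without day 4 replicate 2). The small fall at day 2 (-0.25 ± 0.09, adjusted p = 0.0339) was lost without control replicate 1 (adjusted p = 0.175), day 2 replicate 1 (0.181) or day 2 replicate 2 (0.0642), and with those 2 groups fitted alone (0.0506). The antisense gene CDH13-AS2, which shares 141 exon bases with CDH13, was also higher at day 6 (2.40 ± 0.581 CPM at day 6 and 0.983 ± 0.409 CPM in control, log2 fold change 1.30 ± 0.31, adjusted p = 0.00149). Its count was at most 0.997% of that of CDH13 in any library. Whether counting used strand is not given in the sources used here; without it, reads of a gene and its antisense partner cannot be told apart.

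CDH1 (ENSG00000039068.20; chromosome 16, 68737225 to 68835548, plus strand) encodes E-cadherin and was scarce, with 9 to 129 counts per library. Its level was 3.92, 5.58 and 4.82 CPM in control cells and 6.50, 6.43 and 6.85 CPM at day 2. It was 1.58, 0.540 and 1.43 CPM at day 4 and 0.853, 1.25 and 1.67 CPM at day 6. All day 4 and day 6 libraries lay below all others. CDH1 fell 4.03-fold at day 4 (-1.99 ± 0.27, adjusted p = 2.68e-06) and 3.795-fold at day 6 (-1.88 ± 0.27, adjusted p = 2.90e-06) relative to control. Relative to day 2, day 4 was 5.57-fold lower (-2.46 ± 0.26, adjusted p = 7.67e-08). The day 2 value lay above control in all 3 libraries without passing the test (0.47 ± 0.22, adjusted p = 0.0839). It passed without control replicate 2 (adjusted p = 0.0430), without day 4 replicate 2 (0.0421) and with the 2 groups fitted alone (0.0324).

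Other epithelial markers were measured beside CDH1. The 11 epithelial cell markers, CDH1 among them, summed to 96.8 to 129 CPM in control cells, 257 to 281 at day 2, 88.5 to 116 at day 4 and 85.9 to 92.2 at day 6. Their sum was mostly the keratins KRT8, KRT18 and KRT19, which many non-epithelial lines also express, and 7 of the 11 passed the count filter. EPCAM, an epithelial adhesion protein, had at most 11 counts in any library, GRHL2 and CLDN3 at most 4, ESRP1 at most 8 and CLDN7 at most 10. The part of these markers in the CDH1 result was not tested.

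At day 2, SNAI1 was lower and SNAI2 higher than in control cells. SNAI1 (ENSG00000124216.4; chromosome 20, 49982999 to 49988886, plus strand) encodes Snail, a zinc finger repressor of CDH1. It had 7.66, 11.8 and 8.46 CPM in control cells and 4.13, 4.04 and 2.52 CPM at day 2. It had 3.62, 3.06 and 4.78 CPM at day 4 and 3.47, 3.22 and 3.61 CPM at day 6. All 9 exposed libraries lay below all 3 control libraries. SNAI1 was 2.61-fold lower at day 2 (-1.37 ± 0.21, adjusted p = 5.38e-06), 2.43-fold lower at day 4 (-1.27 ± 0.20, adjusted p = 2.10e-05) and 2.71-fold lower at day 6 (-1.43 ± 0.20, adjusted p = 3.35e-06). The 2 libraries that stood apart in mitochondrial share were the highest control and the lowest day 2 library for SNAI1. Without them the day 2 value was -0.98 (adjusted p = 0.000323). The exposures did not differ from each other past the threshold (day 4 against day 2 0.10 ± 0.22, adjusted p = 0.767; day 6 against day 4 -0.16 ± 0.22, adjusted p = 0.743).

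SNAI2 (ENSG00000019549.13; chromosome 8, 48917604 to 48921740, minus strand) encodes Slug, the paralog of Snail, and is also a p53 target in mouse blood progenitors. Its level was 63.8, 56.3 and 70.4 CPM in control cells and 165, 132 and 139 CPM at day 2. It was 64.2, 69.1 and 78.6 CPM at day 4 and 64.3, 61.5 and 55.5 CPM at day 6. Only the day 2 libraries stood apart; the other 3 groups overlapped. SNAI2 rose 2.29-fold at day 2 (1.20 ± 0.10, adjusted p = 4.91e-10) and was 2.06-fold lower at day 4 than at day 2 (-1.04 ± 0.10, adjusted p = 1.29e-08). Against control, neither day 4 (0.15 ± 0.10, adjusted p = 0.253) nor day 6 (-0.07 ± 0.10, adjusted p = 0.592) passed.

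TWIST1 (ENSG00000122691.13; chromosome 7, 19020991 to 19117672, minus strand) encodes a basic helix-loop-helix factor of the mesoderm and neural crest. Control libraries had 78.5, 103 and 83.9 CPM and day 2 libraries 64.2, 74.1 and 54.5 CPM. Day 4 libraries had 67.2, 65.3 and 61.9 CPM and day 6 libraries 42.4, 49.8 and 49.0 CPM. All exposed libraries were below all control libraries, and day 6 was below both earlier exposures. TWIST1 was 1.38-fold lower at day 2 (-0.46 ± 0.11, adjusted p = 0.000932), 1.37-fold lower at day 4 (-0.45 ± 0.11, adjusted p = 0.00176) and 1.88-fold lower at day 6 (-0.91 ± 0.11, adjusted p = 2.15e-07). Without the 2 libraries that stood apart in mitochondrial share, which were the highest control and the lowest day 2 library for TWIST1, the day 2 value was -0.23 (adjusted p = 0.0485). The step from day 4 to day 6 (-0.46 ± 0.11, adjusted p = 0.0102) was lost without day 4 replicate 1 (adjusted p = 0.0572) or day 6 replicate 1 (0.0767). An antisense gene, ENSG00000232821, shares 141 exon bases with TWIST1, and its count reached 12.8% of that of TWIST1.

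TWIST2 (ENSG00000233608.4; chromosome 2, 238848032 to 238910543, plus strand), the paralog known as Dermo-1, was near the limit of precision, with 29 to 70 counts per library. It had 3.75, 4.07 and 4.43 CPM in control cells and 3.53, 3.90 and 3.12 CPM at day 2. It had 1.64, 3.18 and 3.24 CPM at day 4 and 1.89, 3.43 and 2.73 CPM at day 6. The day 4 and day 6 libraries were below the control libraries, while day 2 overlapped with them. Day 6 passed against control (-0.59 ± 0.24, adjusted p = 0.0477) but was lost in 13 of 20 alternatives, whose adjusted p ran from 0.0216 to 0.214. Those 13 include leaving out any control replicate (0.0548, 0.0680 and 0.125), any day 2 replicate (0.0586, 0.0571 and 0.05002), day 4 replicate 2 (0.0512) or day 6 replicate 1 (0.214) or 3 (0.0912). The day 4 difference did not pass (-0.60 ± 0.24, adjusted p = 0.0541) but did without day 4 replicate 2 (0.0434) or 3 (0.0382) or day 6 replicate 1 (0.0470).

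ZEB1 and ZEB2 encode zinc finger and homeobox repressors that the miR-200 family of small RNAs holds down in epithelial cells. Matches to the seed of the miRNAs printed below are shown here because both ZEB genes hold 5 of them, as few other genes do. The family members miR-200a-3p and miR-141-3p carry another seed, and matches to it were not counted. The mature miRNAs below come from RefSeq (GRCh38.p14), with the seed, bases 2 to 8, in capitals.
miR-200b-3p: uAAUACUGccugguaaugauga
miR-200c-3p: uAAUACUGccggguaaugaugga
miR-429: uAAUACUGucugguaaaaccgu
The 3′ UTR of the principal transcript (GENCODE release 29) held 5 matches to the motif CAGTATT, the reverse complement of that seed written as DNA, in ZEB1 (1938 bases) and 5 in ZEB2 (5370 bases). Only 6 of 19233 genes (0.0312%) held 5 or more on the transcribed strand, and 14.6% held at least 1. CDH11 and SNAI2 held 1 each, and the other 6 genes held 0. The matches that are followed by an A are printed below, numbered from the start of the UTR, with 15 bases before and 8 after, and the capitals mark the motif.
ZEB1 match 1: attgttttatcttatCAGTATTatcactct
ZEB1 match 4: ctgatttttacctatCAGTATTattttatt
ZEB1 match 5: tgtcttcaaacctggCAGTATTaataccct
ZEB2 match 2: cgcactacaatgcatCAGTATTatgattcc
ZEB2 match 3: ttgaagcacccatgtCAGTATTagaagaat
ZEB2 match 4: gttcattaattttgtCAGTATTacaccaaa
ZEB2 match 5: tcatactgtagtgtaCAGTATTatagttct
These matches are a description of the sequence only, since small RNAs were not measured. The long transcript MIR200CHG, from which miR-200c is cut, had at most 2 counts in any library.

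ZEB1 (ENSG00000148516.22; chromosome 10, 31318495 to 31529814, plus strand) changed little. It had 114, 93.2 and 113 CPM in control cells and 91.4, 103 and 96.7 CPM at day 2. It had 119, 130 and 113 CPM at day 4 and 124, 139 and 126 CPM at day 6. The day 6 libraries lay above all control and day 2 libraries, while day 2 and day 4 each overlapped with control. At day 6, ZEB1 was 1.22-fold higher than in control cells (0.28 ± 0.09, adjusted p = 0.0107). That call was lost without control replicate 2 (adjusted p = 0.0594), without day 6 replicate 2 (0.0673) and without the 2 libraries that stood apart in mitochondrial share (0.0561). Day 4 was 1.24-fold above day 2 (0.31 ± 0.09, adjusted p = 0.00679), a call lost without day 2 replicate 1 (0.0514) or day 4 replicate 2 (0.0567). Day 2 did not differ from control past the threshold (-0.14 ± 0.09, adjusted p = 0.211), but was lower without control replicate 2 (-0.23, adjusted p = 0.0226) and with library totals alone (-0.26, adjusted p = 0.0158). The antisense gene ZEB1-AS1 reached 6.51% of the ZEB1 count.

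ZEB2 (ENSG00000169554.22; chromosome 2, 144364364 to 144524583, minus strand), also known as SIP1, had 132, 112 and 127 CPM in control cells and 101, 96.3 and 103 CPM at day 2. It had 89.4, 104 and 91.6 CPM at day 4 and 89.1, 92.5 and 91.5 CPM at day 6. All 9 exposed libraries were below all 3 control libraries. ZEB2 was lower at day 2 (-0.30 ± 0.08, adjusted p = 0.00338), day 4 (-0.38 ± 0.08, adjusted p = 0.000616) and day 6 (-0.44 ± 0.08, adjusted p = 9.55e-05), by 1.24-, 1.30- and 1.36-fold. The exposures did not differ from each other past the threshold.

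**Figure D2:**
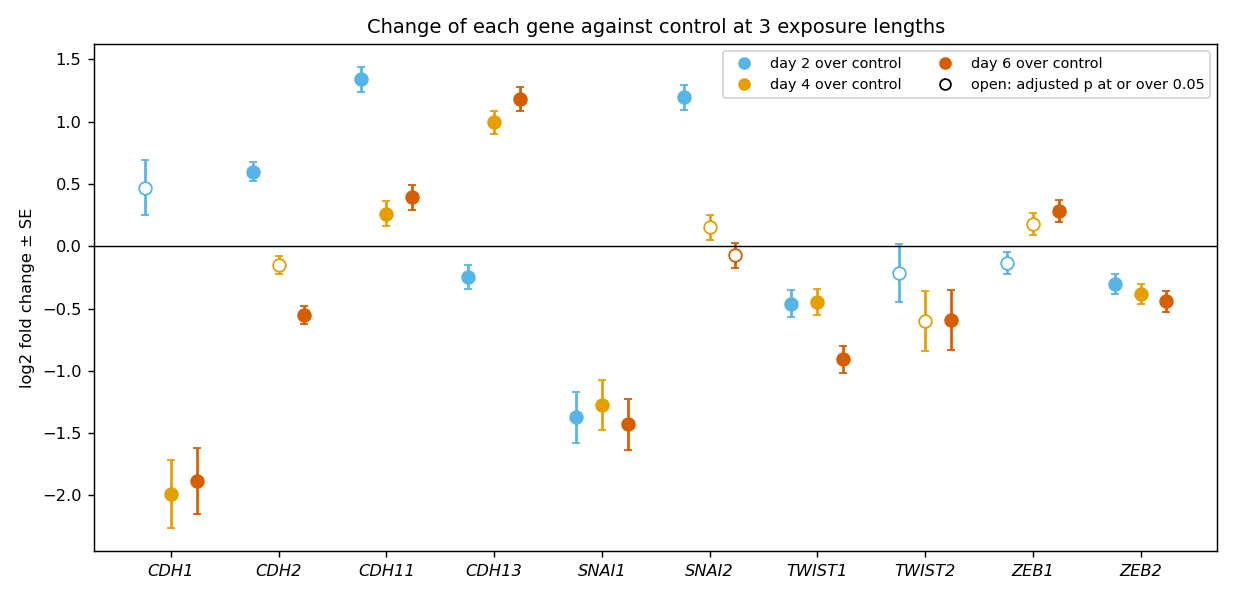
log2 fold change ± SE of each gene against control at the 3 exposure lengths, from edgeR; filled points have an adjusted p under 0.05 and open points do not. CDH2 changes side between day 2 (0.60) and day 6 (-0.55) and CDH13 between day 2 (-0.25) and day 4 (1.00), while SNAI1, TWIST1 and ZEB2 lie below 0 throughout.

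Directly between exposures, 6 of 10 genes differed at day 4 against day 2, beside 34.8% of all tested genes. Of these, CDH13 and ZEB1 were higher at day 4, and CDH1, CDH2, CDH11 and SNAI2 were lower. At day 6 against day 4, CDH2 and TWIST1 were lower, 2 of 10 beside 3.73% of all genes lower, and 0 were higher beside 3.05%. In either direction 6.78% of all genes passed. Libraries did not overlap for 6 of 10 genes at day 4 against day 2 (45.9% of all genes) and for 2 of 10 at day 6 against day 4 (27.6%). The day 4 and day 2 values against control share the same control libraries, so they are given side by side above and not correlated.

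Levels were compared between genes only as CPM per kilobase of exon. Exon length was that of all annotated exons of a gene merged, for example 4950 bases for CDH2 and 11187 for CDH13. The order depends on this choice of length. Before division by length, CDH13 exceeded CDH2 at day 4 (270 and 200 CPM) and day 6 (308 and 151 CPM). ZEB2 likewise exceeded ZEB1 in control cells (124 and 107 CPM). In control cells the order was CDH2 (44.8 CPM per kb), TWIST1 (43.5), SNAI2 (18.7), ZEB1 (12.3), CDH13 (12.1), SNAI1 (5.51), ZEB2 (4.94), TWIST2 (2.17), CDH11 (1.97) and CDH1 (0.773). Neighbours in this order that overlapped between libraries were CDH2 and TWIST1, ZEB1 and CDH13, SNAI1 and ZEB2, and TWIST2 and CDH11. By this measure per kilobase, CDH2 was highest in every group. At day 2, SNAI2 (42.9 CPM per kb) came next and TWIST1 (31.6) after it, without overlap. By day 6, CDH13 (27.5 CPM per kb) stood just below CDH2 (30.5), TWIST1 (23.1) followed and no neighbours overlapped. CDH1 was last in all 4 groups, with 1.07 CPM per kb at day 2, 0.192 at day 4 and 0.204 at day 6.

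**Figure D3:**
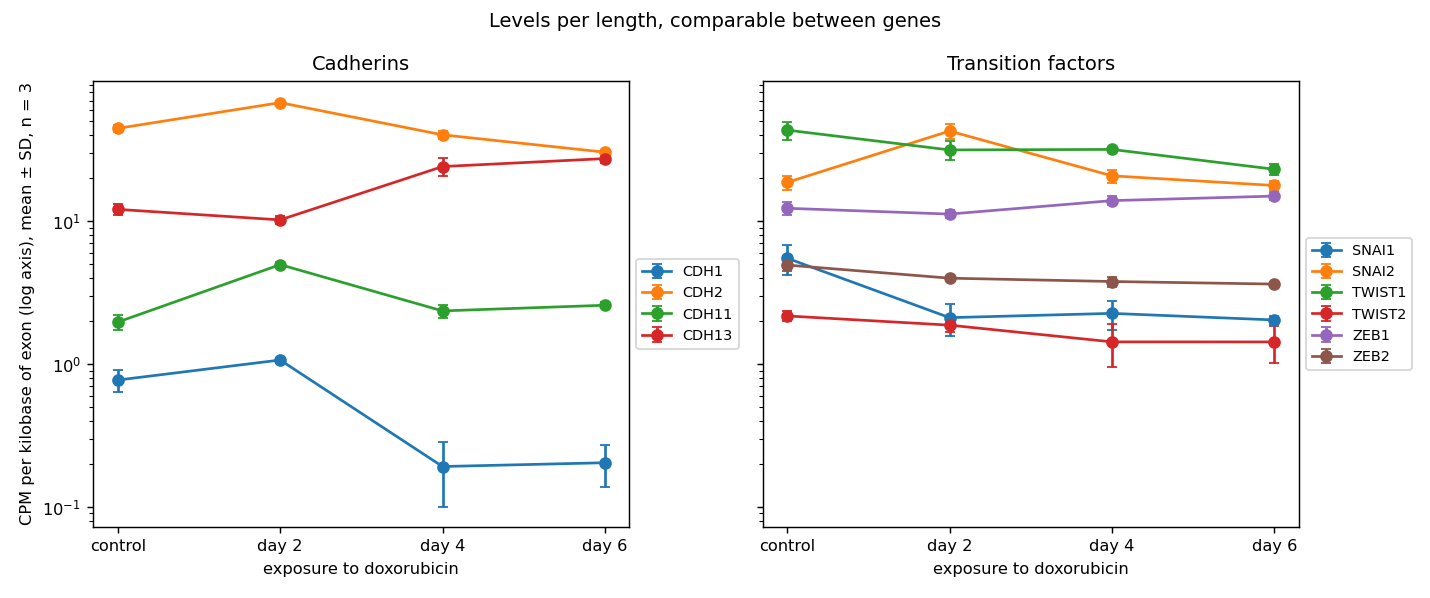
Level per kilobase of exon (mean ± SD, n = 3, log axis) of the 4 cadherins and the 6 transition factors across the groups. CDH13 draws near CDH2 by day 6 (27.5 and 30.5 CPM per kb), and SNAI2 passes TWIST1 at day 2 alone.

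Within the cadherins, the ratio of CDH13 to CDH2 per kilobase was 0.272 ± 0.0320 in control cells, 0.151 ± 0.00890 at day 2, 0.598 ± 0.0616 at day 4 and 0.902 ± 0.0478 at day 6 (SD, n = 3 each). No library of one group overlapped with another. CDH13 made up 20.4% of the sum of the 4 cadherins in control cells, 12.2% at day 2, 36.0% at day 4 and 45.2% at day 6, while CDH2 made up 75.0%, 80.6%, 60.2% and 50.2%. The sum itself was 59.6 ± 2.22 CPM per kb in control cells, 84.0 ± 2.04 at day 2, 67.1 ± 5.51 at day 4 and 60.8 ± 2.703 at day 6. The sums of the day 6 and control libraries overlapped, while the shares of CDH13 and CDH2 did not. The ratio of CDH2 to CDH1, the N- to E-cadherin ratio, was 59.2 ± 11.2 in control cells, 63.5 ± 0.744 at day 2, 270 ± 188 at day 4 and 161 ± 50.8 at day 6. Its day 4 spread came from replicate 2, with 9 counts of CDH1 and a ratio of 486.

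Among the factors, the ratio of SNAI2 to SNAI1 per kilobase was 3.55 ± 1.01 in control cells, 21.18 ± 5.72 at day 2, 9.41 ± 1.61 at day 4 and 8.78 ± 1.00 at day 6. All exposed libraries exceeded all control libraries. The lowest control ratio (2.38, replicate 2) and the highest day 2 ratio (27.4, replicate 3) came from the 2 libraries apart in mitochondrial share. That day 2 library had 42 counts of SNAI1. The ratio of ZEB1 to ZEB2 was 2.50 ± 0.0740 in control cells, 2.82 ± 0.258 at day 2, 3.69 ± 0.152 at day 4 and 4.13 ± 0.195 at day 6, without overlap between any groups. The 6 factors together summed to 87.2 ± 4.64 CPM per kb in control cells, 93.7 ± 6.66 at day 2, 74.1 ± 1.55 at day 4 and 63.1 ± 2.72 at day 6. TWIST1 made up 36.7% of that sum at day 6, against 49.8% in control cells, and SNAI2 made up 45.8% at day 2, against 21.6% in control cells. These ratios and shares are descriptions of the levels tested above. The sizes of the ratios, sums and shares depend on the merged exon lengths used.

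**Figure D4:**
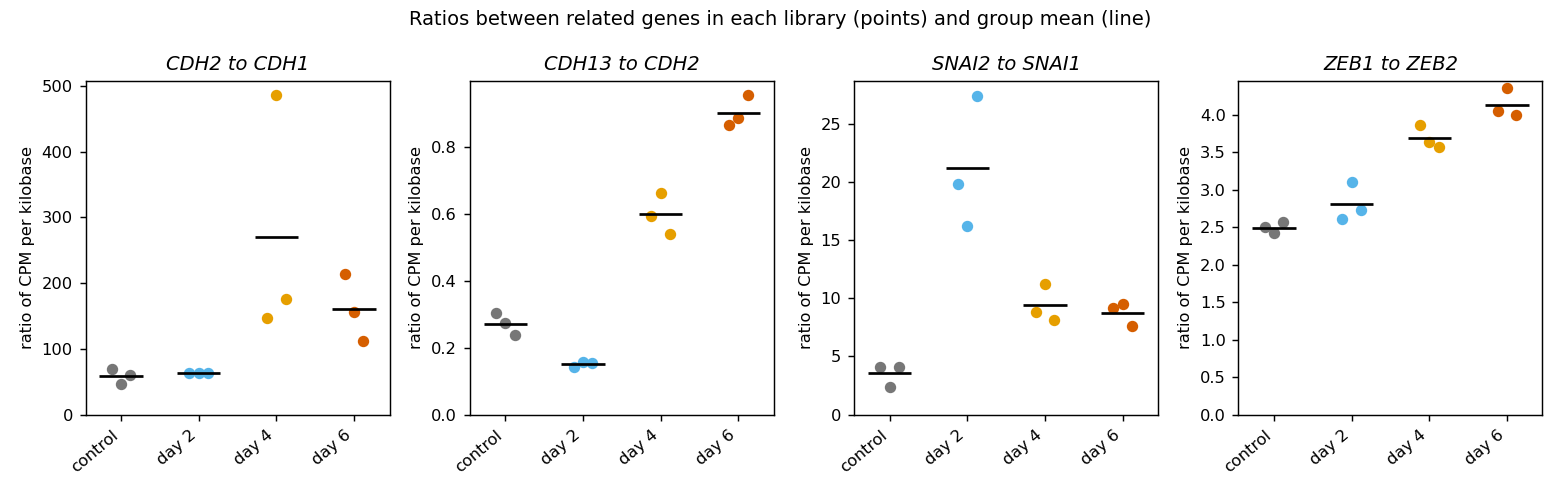
Ratios of CPM per kilobase within pairs of related genes in each library (points) and their group means (lines), on linear axes from 0. The CDH13 to CDH2 ratio is 0.902 at day 6 and 0.272 in control cells, and the SNAI2 to SNAI1 ratio peaks at day 2 (21.18).

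Related genes were counted by list against control, and each count is read beside the share of all genes. Of all tested genes, 23.8% were higher and 23.4% lower at day 2, 18.8% and 17.7% at day 4, and 22% and 21.7% at day 6. The median log2 fold change of all tested genes was -0.01, -0.00 and -0.01.

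Other cadherins moved in both directions. Of 38 listed, 17 were tested, with 4 higher and 7 lower at day 2, 1 and 6 at day 4, and 2 and 3 at day 6. The list's median log2 fold change was -0.52, -0.31 and 0.00. The 4 of 17 higher at day 2 are near the share of all genes (23.8%). The 7 of 17 lower at day 2 stand beside 23.4% of all genes, and the 6 of 17 lower at day 4 beside 17.7%. CDH10, a type II cadherin of the brain, averaged 15.7 ± 0.578 CPM at day 2 and 0.788 ± 0.235 CPM in control (4.30 ± 0.20, adjusted p = 7.85e-15), and was still higher at day 6 (3.44 ± 0.21, adjusted p = 1.53e-12). CDH3, P-cadherin, reached 3.87 ± 0.347 CPM at day 2, against 0.848 ± 0.164 CPM in control (2.18 ± 0.28, adjusted p = 7.04e-07). DCHS1, a large cadherin of planar cell polarity, fell to 10.4 ± 1.22 CPM at day 2, against 23.9 ± 2.06 CPM in control (-1.20 ± 0.12, adjusted p = 1.15e-08). CDH18 was lower at all 3 exposures (-0.79, -1.12 and -0.67).

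Of 19 catenins and junction partners, 17 were tested, with 8 higher and 4 lower at day 2, 4 and 4 at day 4, and 4 and 8 at day 6 (medians 0.31, -0.07 and 0.04). Beta-catenin (CTNNB1), which binds the tails of classical cadherins, averaged 244 ± 22.3 CPM at day 2 and 197 ± 9.52 CPM in control (0.31 ± 0.08, adjusted p = 0.00178). Vinculin (VCL), which links junctions to actin, averaged 569 ± 29.4 CPM at day 2 and 319 ± 2.80 CPM in control (0.84 ± 0.07, adjusted p = 9.28e-10). The desmosomal plakophilins differed: PKP1 was higher at day 6 (1.43 ± 0.12, adjusted p = 1.06e-09), and PKP2, the form found at the intercalated disc, was lower (-1.37 ± 0.15, adjusted p = 4.39e-08).

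Of 34 epithelial genes, 19 were tested, with 8 higher and 4 lower at day 2, 5 and 5 at day 4, and 4 and 5 at day 6 (medians 0.30, -0.20 and -0.07). The day 6 counts, 4 and 5 of 19, are near the shares of all genes (22% and 21.7%). The tight junction gene CLDN1 averaged 28.99 ± 1.04 CPM at day 6 and 6.79 ± 1.27 CPM in control (2.09 ± 0.14, adjusted p = 6.59e-12), whereas occludin (OCLN) averaged 6.84 ± 1.01 CPM at day 6 and 19.8 ± 1.73 CPM in control (-1.53 ± 0.13, adjusted p = 1.25e-09). Keratin KRT18 was higher at day 2 (193 ± 13.7 CPM, against 66.8 ± 9.90 CPM in control; 1.53 ± 0.11, adjusted p = 2.87e-11) and lower at day 6 (-0.67 ± 0.11, adjusted p = 2.78e-05). KRT7 averaged 12.3 ± 1.47 CPM at day 2 and 0.565 ± 0.0796 CPM in control (4.44 ± 0.26, adjusted p = 4.63e-13). EPCAM stayed under 1 CPM on average in all 4 groups.

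All 30 mesenchymal genes were tested, with 25 higher and 0 lower at day 2, 21 and 4 at day 4, and 18 and 6 at day 6. Among all tested genes the shares higher were 23.8%, 18.8% and 22%, and those lower 23.4%, 17.7% and 21.7%. The list's median log2 fold change was 0.66, 0.47 and 0.44 at the 3 exposures. Smooth muscle actin (ACTA2), a myofibroblast gene, averaged 107 ± 4.64 CPM at day 6 and 10.1 ± 2.03 CPM in control (3.41 ± 0.11, adjusted p = 7.11e-18). Vimentin (VIM) averaged 4707 ± 206 CPM at day 4 and 2133 ± 197 CPM in control (1.14 ± 0.08, adjusted p = 2.19e-11). Fibronectin (FN1) was higher at all 3 exposures (0.73, 0.69 and 0.53). The membrane protease MMP14 and the ectonucleotidase NT5E were higher at day 6 (1.83 ± 0.07 and 1.84 ± 0.08). Collagen COL5A1 was higher at day 2 (1.37 ± 0.07, adjusted p = 1.22e-13) and near control at day 6 (-0.01 ± 0.07, adjusted p = 0.918). Fibroblast markers overlap with this list, and their members split: 9 of 13 were higher and 1 lower at day 2, 4 and 6 at day 4, and 4 and 7 at day 6. Their sum, given above, stayed above control at day 6 with VIM, at 4026 CPM at day 6 and 2133 CPM in control. The 7 lower at day 6 were LUM (-1.86), PDGFRB (-1.29), S100A4 (-1.04), DCN (-0.97), COL3A1 (-0.82), PDGFRA (-0.51) and COL1A1 (-0.28). Smooth muscle and pericyte markers, 7 of 8 tested, summed to 227 to 248 CPM in control cells, 532 to 558 at day 2, 438 to 473 at day 4 and 419 to 443 at day 6. At day 6, ACTA2, MYOCD (2.00), CSPG4 (0.87) and RGS5 (1.61) were higher, and CNN1 (-1.22), DES (-1.98) and TAGLN (-0.36) were lower. DES was scarce, with 54 counts in total over the control libraries and 16 over the day 6 libraries. The part of these cell type markers in the mesenchymal list was not tested.

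**Figure D5:**
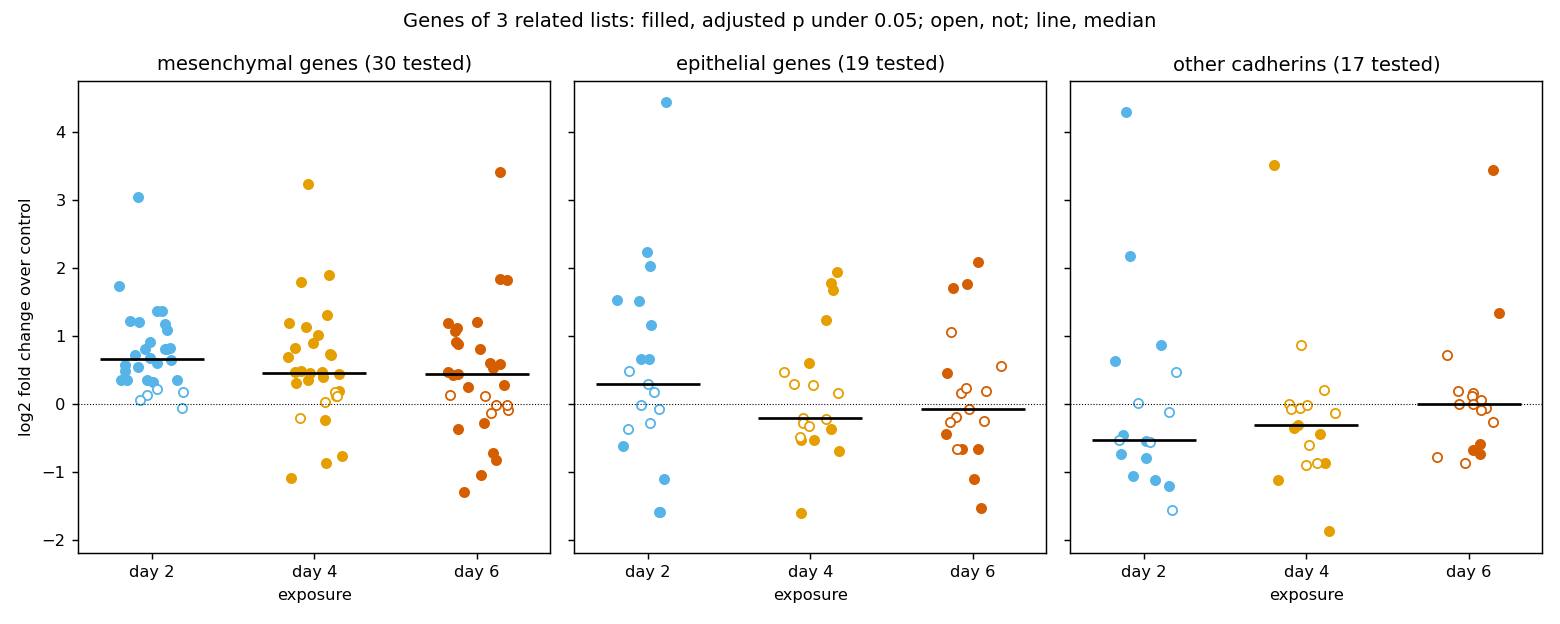
log2 fold change over control of each tested gene of 3 related lists (points; filled where the adjusted p is under 0.05) with the list median (line) at each exposure. The mesenchymal median is 0.66 at day 2 and 0.44 at day 6, while the epithelial list and the other cadherins spread to both sides of 0.

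Other factors of the transition program, 29 of 35 tested, gave 14 higher and 7 lower at day 2, 8 and 8 at day 4, and 12 and 11 at day 6 (medians 0.34, 0.15 and 0.06). HMGA2, a chromatin protein that acts upstream of SNAI1 and TWIST1 in mouse mammary cells, averaged 485 ± 19.5 CPM at day 6 and 127 ± 13.3 CPM in control (1.94 ± 0.08, adjusted p = 2.10e-15). FOXC1 was lower at day 6 (20.4 ± 1.34 CPM, against 48.9 ± 1.02 CPM in control; -1.26 ± 0.09, adjusted p = 3.69e-11). KLF4, a factor that promotes CDH1 in epithelial cells, averaged 51.5 ± 2.74 CPM at day 2, 12.3 ± 0.483 at day 4 and 20.6 ± 2.11 in control, with a log2 fold change of 1.32 at day 2 (adjusted p = 4.66e-11) and -0.75 at day 4 (adjusted p = 3.85e-06).

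Corepressors that Snail and ZEB proteins recruit, all 19 tested, gave 5 higher and 7 lower at day 2, 2 and 7 at day 4, and 3 and 10 at day 6 (medians -0.03, -0.14 and -0.21). The histone methyltransferase EZH2 averaged 33.4 ± 2.55 CPM at day 2 and 70.9 ± 3.74 CPM in control (-1.08 ± 0.08, adjusted p = 1.10e-10), and the LIM protein AJUBA averaged 44.7 ± 1.46 CPM at day 6 and 85.4 ± 6.83 CPM in control (-0.94 ± 0.09, adjusted p = 2.54e-09). Genes that control the stability or place of Snail and Twist proteins, all 18 tested, gave 4 higher and 7 lower at day 2, 3 and 7 at day 4, and 3 and 8 at day 6 (medians -0.21, -0.12 and -0.16). Among them the phosphatase CTDSP2 was lower at day 6 (94.1 ± 1.60 CPM, against 155 ± 3.63 CPM in control; -0.72 ± 0.07, adjusted p = 1.00e-08), and the kinase PRKD1 was lower at all 3 exposures (-0.80, -0.93 and -0.72). Protein levels were not measured.

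Genes of the TGF-beta, BMP and Wnt pathways, 27 of 29 tested, gave 10 higher and 7 lower at day 2, 7 and 9 at day 4, and 8 and 13 at day 6 (medians 0.18, -0.11 and -0.23). The list holds ligands, receptors and transducers together with inhibitors such as SMAD7, SKI and DKK1, so its counts give no direction of signalling. The ligand TGFB2 averaged 197 ± 25.8 CPM in control cells, 261 ± 9.05 at day 2, 87.2 ± 15.7 at day 4 and 61.2 ± 4.23 at day 6. It was higher at day 2 (0.41 ± 0.10, adjusted p = 0.00239) and lower at day 4 (-1.18 ± 0.11, adjusted p = 5.49e-09) and day 6 (-1.69 ± 0.11, adjusted p = 8.68e-12). Its type I receptor TGFBR1 was lower at day 6 (-0.75 ± 0.10, adjusted p = 6.96e-07), while the type II receptor TGFBR2 was higher at all 3 exposures (0.45, 0.68 and 0.92). The signal transducer SMAD3 was higher at all 3 exposures (0.94, 0.67 and 0.80), as was the inhibitor SMAD7 (1.76, 0.69 and 0.69). Among the antisense genes CDH13-AS1, CDH13-AS2 and ZEB1-AS1, CDH13-AS2 passed at day 6 as given above, while CDH13-AS1 (1.13, adjusted p = 0.0581) and ZEB1-AS1 (0.37, adjusted p = 0.0781) did not.

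The genes nearest to each member in pattern were found by the Euclidean distance of centred mean log2 CPM over the 4 groups, among the 9340 genes that averaged 10 CPM or more. For SNAI2 they were BAK1 (0.0365) and GADD45A (0.0572), with GADD45A at 195 CPM in control cells, 448 at day 2, 221 at day 4 and 196 at day 6. For CDH2 they were GLRX (0.0340) and MYADM (0.0609), for CDH11 KSR1 (0.0540) and NUAK2 (0.0922), and for CDH13 APCDD1 (0.0387) and ANPEP (0.163). ANPEP, aminopeptidase N, had 62.3 CPM in control cells, 58.5 at day 2, 146 at day 4 and 154 at day 6. For SNAI1 the nearest were RCC1 (0.0961) and H1-10 (0.189), for TWIST1 the pseudogene MORF4L1P1 (0.0331) and DAG1 (0.0367), and for TWIST2 SPOP (0.0403) and NARS1 (0.0465). For ZEB1 they were LY96 (0.0114) and ORMDL1 (0.0319), and for ZEB2 GMNN (0.0200) and NEDD1 (0.0208). CDH1 had no close neighbour by this measure, the nearest being SLC12A8 (0.459) and DEPTOR (0.583). These distances rest on 4 group means, and small distances are easy for genes that vary little.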

How the data were processed

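Per the labels' protocols, 12 AC16 libraries were made with the NEBNext Ultra RNA kit. The authors deposited raw counts per gene, unnormalized, for 60607 Ensembl IDs. The submitters' processing notes name fastp 0.23.2, Trimmomatic 0.38, STAR 2.7.8, HTSeq 0.13.5 and GRCh38.p13, and no strand setting. Symbols matched 60437 IDs. Positions and exon lengths came from GENCODE release 29 (GRCh38).

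Counts were tested with edgeR 4.0.16 in R 4.3.3: filterByExpr (minimum count 10, minimum total 15), TMM scaling, and glmQLFit (robust) on all 12 libraries with glmQLFTest per comparison. Common biological coefficient of variation was 0.0887, with 8 residual degrees of freedom. P-values were Benjamini-Hochberg adjusted over 17320 genes, with a threshold of 0.05. A value after ± is an SE for a log2 fold change and an SD (n = 3) for a level. Folds are ratios of group mean CPM. Day 6 against day 2 was added after seeing the data, for the direct test of opposite signs. The procedure was tested on simulated counts.

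The members and lists were chosen with earlier results of these data known. Named genes were the 10 members, the 2 nearest patterns per member and up to 4 tested genes per list with the smallest 4-group p. A few genes were named in advance (VIM, FN1, EPCAM, CTNNB1, TGFB2, CDKN1A and MDM2). KRT8, KRT19, S100A4, PDGFRA, COL1A1, COL3A1, CNN1, DES, RGS5, SKI, DKK1, TGFBR2 and markers near 0 were added after their values were seen. Counts of every pair of libraries in a group differed by more than sampling noise. Same-numbered repeats did not deviate together. Alternatives were other scalings, filters, DESeq2 1.42.0, a replicate block, each pair of groups alone, leaving out each library and, added after seeing the data, leaving out 2 libraries apart in mitochondrial share.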

Additional observations from a re-analysis of the deposited data

Results flagged for a closer look

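CDH13 and CDH2 differed from control in opposite directions at different exposures, and the exposures were then compared directly. CDH13 was higher at day 4 (log2 fold change 1.00) and lower at day 2 (-0.25) against control, and the direct difference was 1.24 ± 0.09 (SE, adjusted p = 2.45e-10). At day 6 against day 2 the direct difference of CDH13 was 1.43 ± 0.09 (adjusted p = 1.46e-11). The call of CDH13 at day 2 against control was lost under 4 of 20 alternatives, so the opposite signs rest on that small fall, while the direct difference of day 4 and day 2 passed under all 20. CDH2 was lower at day 6 (-0.55) and higher at day 2 (0.60) against control, and the direct difference was -1.15 ± 0.07 (adjusted p = 8.95e-12). Day 6 against day 2 was tested after these signs were seen.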

How the results depend on the processing

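The 50 log2 fold changes of the 10 genes in 5 comparisons were recomputed under 20 alternatives each. Of the 30 that passed the threshold, 24 passed under every alternative, and none changed sign. Of the 20 that did not pass, 5 did under some alternative, CDH2 at day 4 against control among them (-0.19, adjusted p = 0.0460 with library totals alone; range over its alternatives 0.0460 to 0.374). The 18 sign changes were all of values that had not passed. The number of genes changed at day 6 against day 4 was 1174, but 1837 with the 2 groups alone and 2027 without the 2 libraries apart in mitochondrial share. With 1 library left out it ran from 572 to 1842: 1842 without control replicate 2, 572 and 685 without day 4 replicate 1 and 3, and 611 and 580 without day 6 replicate 1 and 2. The cause was not tested. Of the 10 genes, 1 to 3 changed in that comparison with 1 library left out, and only CDH2 was left without day 4 replicate 1 or day 6 replicate 1. With library totals alone, 37.3% of the changed genes were higher at day 2 against control (50.4% with TMM), 61.1% at day 4 against day 2 (46.9%) and 74.2% at day 6 against day 4 (45%), since that scaling moved the median of all genes to -0.14, 0.09 and 0.07. Same-numbered libraries showed no visible shared deviation: 18 same-numbered pairs correlated at -0.171 to 0.0963, and other pairs at -0.217 to 0.170. With 3 libraries a group, this check cannot show that the libraries were unpaired. With a replicate block, 7, 7 and 9 of the 10 genes passed against control, TWIST2 at day 4 joining (-0.63, adjusted p = 0.0359). Of all genes, 7950, 6035 and 7296 passed with that block, beside 8180, 6321 and 7571 without it. CDH1, SNAI1 and TWIST2 had the fewest counts and the widest errors.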
